A study of Mus musculus with 9 samples.

Results

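RNA crosslinked to the 3' UTR of mRNAs was compared between 2 forms of the mRNA export protein Chtop, with and without exon 5. Genes were taken from the 3' UTR count table and only the 6 libraries of these 2 forms entered the test. Of 22442 genes in the table, 4584 held no value for a 3' UTR and were left out, which left 17858. Counts were found for 10446 of these in the 6 libraries and for none of the other 7412. The test covered 4616 genes with enough counts, of which 4067 had a symbol. A gene was called well counted at a mean of at least 100 CPM (a gene's count per 1000000 3' UTR counts of its library, scaled with TMM factors), which held for 2411 genes, 2303 of them with a symbol.

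Chtop is a nuclear RNA-binding protein and part of the TREX complex, which loads onto mRNA as it is made and hands it to the export receptor Nxf1. It is methylated on arginines by Prmt1 and joins Alyref and the helicase Ddx39b in this complex. The 3' UTR is the untranslated end of an mRNA, where cleavage and polyadenylation factors, decay factors and microRNA complexes bind.

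The method was iCLIP, in which ultraviolet light links protein to RNA, the protein is pulled down and the attached RNA is sequenced. All cells were N2a, a mouse neuroblastoma line, with the Flp-In and rtTA elements that allow doxycycline to switch on an inserted cDNA. The group with exon 5 carried FLAG-Chtop that includes the exon and the group without exon 5 carried FLAG-Chtop that lacks it, with 3 anti-FLAG libraries each. Doxycycline (2 µg/mL, 24 hours) switched the cDNA on in both lines, and cells were irradiated with 0.15 J/cm2 at 254 nm. Endogenous Chtop remained in both. The labels call the replicates independent and handled on separate days, each from 1 line per form, so p-values measure the spread between such replicates and not between lines. Size-matched inputs, 2% of lysate with no antibody step, were single libraries of the line with exon 5, the line without exon 5 and a FLAG-GFP line. Inputs were used only to give the RNA level of a gene in each line, since counts in an immunoprecipitate cannot tell more RNA from more binding.

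The libraries with exon 5 held 242265, 256170 and 369534 counts in 3' UTRs, and those without exon 5 held 187453, 290833 and 507636. In the inputs the totals were 87051 in the line with exon 5, 54799 in the line without and 38926 in the FLAG-GFP line. A floor of 3 counts came to between 6.50 and 15.6 CPM in the immunoprecipitates. Intervals and floors from counts cover counting error only. Across tested genes, log2(CPM + 2) correlated at 0.429 to 0.453 among the 3 libraries with exon 5 and at 0.472 to 0.608 among the 3 without. Between the groups the correlation was 0.404 to 0.513, a range that covers all pairs with exon 5 and lies below 2 of the 3 pairs without (0.552 and 0.608). These correlations are across genes, which are not independent replicates. Of 16 measured genes of a neuroblastoma list, 15 had a count, among them Map1b, Prph and Hand2, and Dbh was at 0. The summed level of that list was 8396 to 10860 CPM in the libraries with exon 5 and 6680 to 8017 CPM in those without. Of 13 measured markers of glia, fibroblasts, blood, endothelium and epithelium, 10 were at 0 in all 6 libraries and 3 had counts, none above 18 in a library. Their summed level was 31.3 to 52.3 CPM with exon 5 and 23.8 to 81.4 CPM without, and their part in any result was not tested.

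Chtop (ENSMUSG00000001017.15, chromosome 3, 90498539 to 90509527 in GRCm38.p6, the assembly of mm10; 3' UTR of 2557 bases) had 78, 161 and 145 3' UTR counts with exon 5, against 41, 44 and 88 without. Each library with exon 5 lay above every library without it. The level was 443 ± 169 CPM in the libraries with exon 5 and 184 ± 32.2 CPM in those without (SD, n = 3 per form). The log2 fold change, with exon 5 over without, was 1.27 (SE 0.49, 95% interval 0.22 to 2.31), with an adjusted p of 0.772 in edgeR's quasi-likelihood test with Benjamini-Hochberg adjustment. In the inputs the order was the other way, with 6 counts (68.9 CPM, exact Poisson 95% interval 25.3 to 150 CPM) in the line with exon 5 and 17 counts (310 CPM, 181 to 497 CPM) in the line without. In the CDS the log2 fold change was 0.38 (SE 0.37). The labels do not say whether the inserted cDNA carries a 3' UTR, and the counts cannot separate it from the endogenous mRNA.

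No gene passed the test: 0 of 4616, or 0%, had an adjusted p under 0.05 in edgeR's quasi-likelihood test. At an unadjusted p under 0.05 there were 277 genes, or 6.0%, of which 128 were higher and 149 lower with exon 5. The lowest adjusted p was 0.122. DESeq2's Wald test called 20 genes on the same counts and limma-voom called 2, Cnr1 and Hjurp. Among genes named below, DESeq2 called Cnr1, Zfhx3, Taok3 and Zhx1 as higher with exon 5. It called Hjurp, Myh9, Mtdh, Tmbim6, Sik1, Zfp142, Pask, Dmrtc1c1, Dmrtc1c2 and Ccnj as lower. In 273 genes (5.91%) every library with exon 5 lay above every library without, and in 323 genes (7.0%) every one lay below. Among well-counted genes with a symbol these shares were 6.51% (150 genes) and 8.08% (186 genes). The common biological coefficient of variation, the spread between replicates of a group that the fit estimates, was 75.7%. So the values below describe these libraries. None is taken as a called change, as no call of DESeq2 or limma-voom was made by edgeR's main test.

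**Figure D1:**
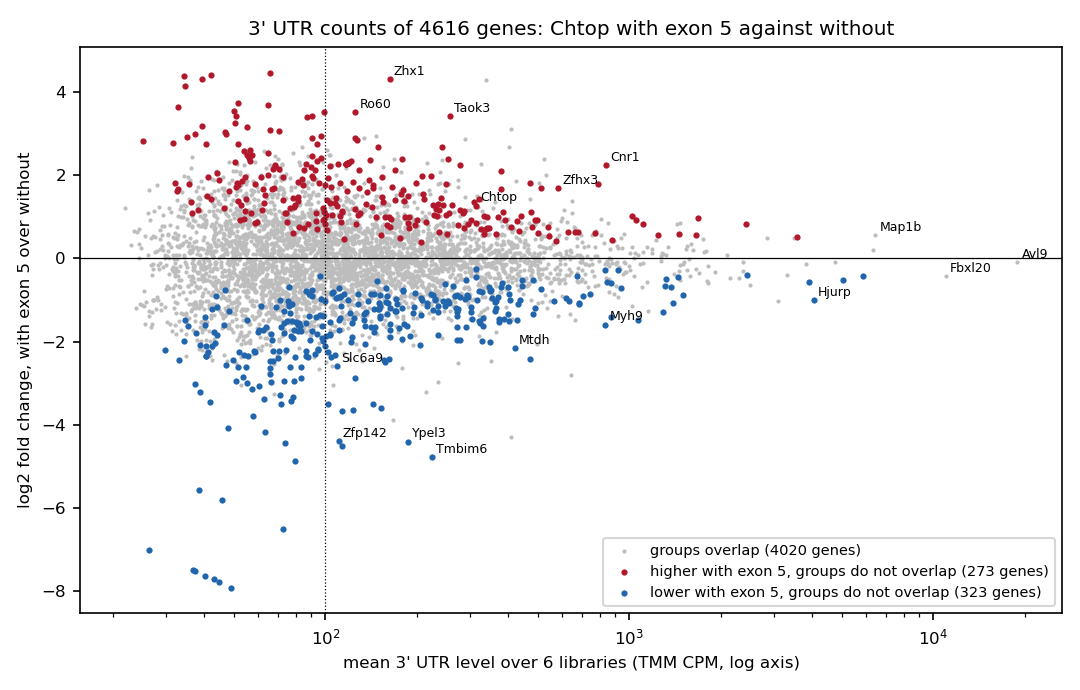
Log2 fold change of the 3' UTR count, with exon 5 over without (vertical axis), against the mean level over 6 libraries in CPM (log axis) for the 4616 tested genes. Red points are the 273 genes whose libraries with exon 5 all lay higher, blue points the 323 whose libraries all lay lower, grey points genes whose groups overlap. The dotted line marks 100 CPM. The points narrow toward 0 as the level grows, and the genes near the bottom left had no count in any library with exon 5.

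Another 4 well-counted genes with low p-values, which encode a receptor, a transcription factor, a myosin and a membrane protein, were picked after their values were seen. Cnr1 (chromosome 4, 33923171 to 33948831; 3' UTR of 3799 bases), the cannabinoid receptor of neurons, had 405, 355 and 439 counts with exon 5, against 45, 77 and 177 without. The libraries with exon 5 stood at 1556, 1389 and 1208 CPM and those without at 233, 261 and 384 CPM, far apart with no overlap. The log2 fold change was 2.23 (SE 0.36, 95% interval 1.46 to 3.01), and its adjusted p of 0.122 in edgeR's quasi-likelihood test was the lowest of all genes. The call depended on the method: the adjusted p was 1.03e-05 in DESeq2 and 0.00719 in limma-voom. The RNA level of Cnr1 also differed between the inputs, with 65 counts (747 CPM, 576 to 952 CPM) in the line with exon 5 and 0 counts in the line without, where the same interval reaches up to 67.3 CPM. The FLAG-GFP input had 0 counts as well. Its part in the difference between the immunoprecipitates was not tested. In the CDS of Cnr1 the log2 fold change was 1.75 (SE 0.51).

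Zfhx3 (chromosome 8, 108279311 to 108961636), a large transcription factor with zinc fingers and homeodomains, had 275, 263 and 213 counts with exon 5, against 53, 83 and 123 without. Its level was 890 ± 264 CPM in the libraries with exon 5 and 274 ± 7.40 CPM in those without (SD, n = 3 per form), and the groups did not overlap. The difference in its 3' UTR was 1.70 on the log2 scale (SE 0.40, adjusted p = 0.416 in edgeR's quasi-likelihood test), against 0.26 (SE 0.23) in its CDS. The inputs ran the other way for Zfhx3, with 448 CPM in the line with exon 5 and 949 CPM in the line without, from 39 counts with exon 5 and 52 without.

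Myh9 (chromosome 15, 77760585 to 77842175), a non-muscle myosin heavy chain, had 96, 104 and 171 counts with exon 5, against 258, 404 and 484 without. All 3 libraries with exon 5 were lower, at 415 ± 51.4 CPM, than the 3 without, at 1252 ± 177 CPM (SD, n = 3 each). The difference in its 3' UTR was -1.59 on the log2 scale (SE 0.34, adjusted p = 0.410 in edgeR's quasi-likelihood test) in the 3' UTR and -0.43 (SE 0.33) in the CDS. Its input level was lower in the line with exon 5 too, at 172 CPM from 15 counts, against 584 CPM from 32 counts in the line without.

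Mtdh (chromosome 15, 34082442 to 34143537), a membrane-associated RNA-binding protein studied in cancer, had 47, 53 and 28 counts with exon 5, against 112, 245 and 299 without. No library with exon 5 reached the level of any library without. The difference in its 3' UTR was -2.15 on the log2 scale (SE 0.48, adjusted p = 0.410 in edgeR's quasi-likelihood test), against -0.56 (SE 0.69) in the CDS. The inputs gave 333 CPM in the line with exon 5 and 219 CPM in the line without, with overlapping counting intervals.

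**Figure D2:**
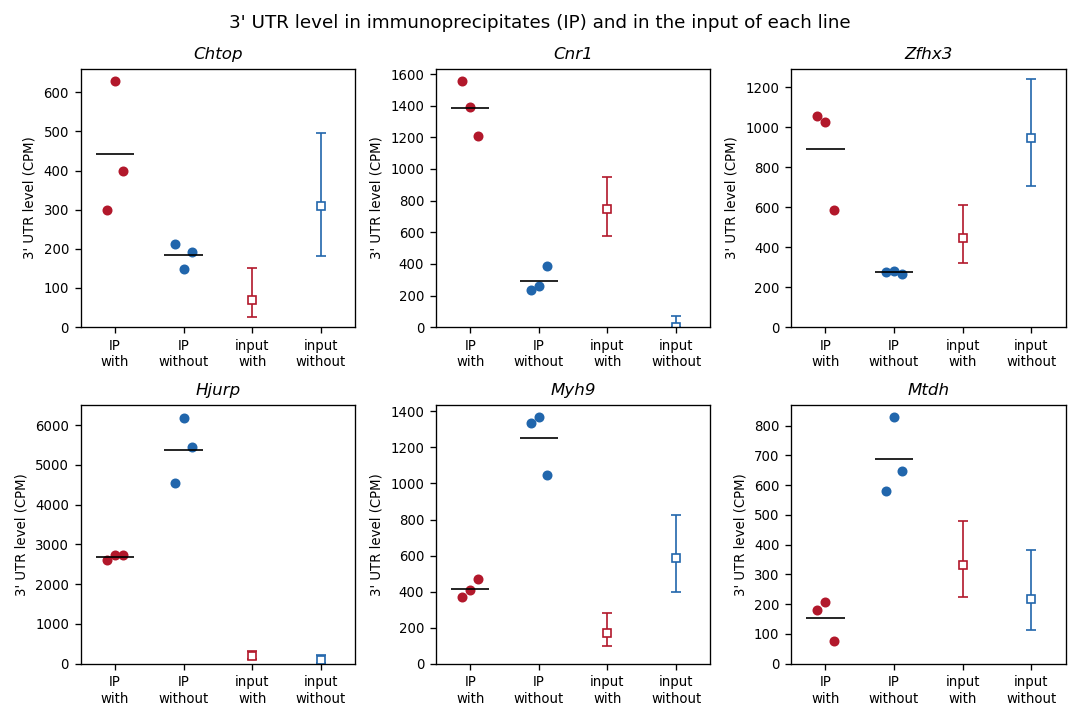
The 3' UTR level in CPM of 6 genes in the immunoprecipitates (filled points, 1 per library, with the mean as a line) and in the input of each line (open squares with exact Poisson 95% intervals for counting error), with exon 5 in red and without in blue. Cnr1 and Myh9 show the same order in both kinds of library, Chtop and Zfhx3 the opposite order, and Hjurp was low in both inputs.

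Among well-counted genes whose groups did not overlap, the 10 highest log2 fold changes ran from 2.35 to 4.30, with adjusted p between 0.420 and 0.679 in edgeR's quasi-likelihood test. Counts in a library lay between 12 and 395 with exon 5 and between 0 and 41 without. With a library left out, whichever it was, their log2 fold changes lay between 1.20 and 6.56. All 10 reached the mean of 100 CPM only through the libraries with exon 5, with mean levels of 80.5 CPM or less without. Genes this low without exon 5 could enter the set only by being higher with it, so nothing is read from their direction. Cadm1, an adhesion molecule of synapses, had 91, 63 and 63 counts with exon 5, against 15, 5 and 13 without. Lrrn3, a neuronal membrane protein with leucine-rich repeats, had 122, 39 and 101 counts with exon 5, against 11, 21 and 20 without. Nptn (neuroplastin), an adhesion molecule of the immunoglobulin family, had 59, 50 and 102 counts with exon 5, against 18, 9 and 8 without. In these 3 genes every library with exon 5 was above every library without, and the log2 fold changes were 2.67 (SE 0.79), 2.39 (SE 0.67) and 2.35 (SE 0.81). The RNA level differed in the same direction in the inputs for Cadm1, with 24 counts in the line with exon 5 and 0 in the line without, and for Nptn, with 36 counts in the line with exon 5 and 4 in the line without. Their part in the result was not tested. Lrrn3 had 5 input counts in the line with exon 5 and 0 in the line without, with overlapping intervals.

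Ro60, which binds small cytoplasmic Y RNAs, had 89, 79 and 16 counts with exon 5, against 0, 12 and 8 without (log2 fold change 3.5, SE 1.12). Ints2, a subunit of the Integrator complex that cuts nascent transcripts, had 70, 28 and 325 counts with exon 5, against 17, 19 and 41 without. Its log2 fold change of 2.40 came to 1.20 without replicate 3 of the libraries with exon 5. Knop1, a lysine-rich nucleolar protein, behaved alike, with 71, 36 and 307 counts with exon 5, against 6, 36 and 19 without. Its log2 fold change was 2.68 with all libraries and 1.64 without replicate 3 with exon 5.

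A single library also held most of the counts with exon 5 in Taok3, Zhx1 and Hspb8. Taok3 (chromosome 5, 117120111 to 117275101), a stress-responsive protein kinase, had 38, 46 and 395 counts with exon 5, against 11, 7 and 24 without. The third library with exon 5 was far above its fellows, and the log2 fold change of 3.41 (SE 0.82) came to 1.85 without it. Zhx1, a homeodomain repressor with zinc fingers, had 12, 205 and 30 counts with exon 5, against 0, 12 and 2 without, and its log2 fold change of 4.30 (SE 1.29) came to 2.02 without replicate 2 with exon 5. The remaining 2 were Cryzl1, a relative of quinone reductases, with 28, 91 and 71 counts with exon 5, against 9, 7 and 9 without, and Hspb8, a small heat shock protein, with 53, 26 and 132 counts with exon 5, against 1, 19 and 10 without. Their log2 fold changes were 2.89 (SE 0.85) and 2.84 (SE 0.94).

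The 10 lowest log2 fold changes ran from -4.78 to -2.60, with adjusted p between 0.410 and 0.783 in edgeR's quasi-likelihood test. In a library, counts lay between 0 and 18 with exon 5 and between 12 and 428 without. With a library left out, whichever it was, their log2 fold changes lay between -6.56 and -2.02. All 10 passed the count filter and the mean of 100 CPM only through the libraries without exon 5. Their mean levels with exon 5 were 31.2 CPM or less. Genes this low with exon 5 could enter only by being higher without it, so nothing is read from their direction. Tmbim6 (chromosome 15, 99392947 to 99410049), a membrane protein of the endoplasmic reticulum that restrains cell death, had 0, 6 and 8 counts with exon 5, against 47, 61 and 392 without. Zfp142 (chromosome 1, 74566331 to 74588133), a zinc finger protein, had 0, 3 and 6 counts with exon 5, against 48, 62 and 81 without. Ypel3, a small protein linked to growth arrest, had 7, 4 and 3 counts with exon 5, against 12, 23 and 428 without. Libraries with exon 5 were low in all 3 genes, while in Ypel3 and Tmbim6 most counts without exon 5 came from replicate 3. Without that library the log2 fold change of -4.40 for Ypel3 came to -2.05, and that of -4.78 (SE 0.94) for Tmbim6 came to -3.86. For Zfp142 it was -4.39 (SE 1.05).

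Sik1, a salt-inducible kinase, had 1, 0 and 8 counts with exon 5, against 22, 102 and 90 without (log2 fold change -4.51, SE 1.13). Pask, a kinase with a PAS domain, had 3, 6 and 5 counts with exon 5, against 71, 51 and 43 without (log2 fold change -3.67, SE 0.92). Pvr, an adhesion molecule first known as the poliovirus receptor, had 6, 0 and 9 counts with exon 5, against 51, 32 and 89 without. Slc6a9, a glycine transporter, had 6, 18 and 0 counts with exon 5, against 46, 26 and 108 without. In all 4 genes no library with exon 5 reached the lowest library without it. Another 2 of the 10, Dmrtc1c1 and Dmrtc1c2, are close copies of each other on the X chromosome with nearly the same counts in every library, so their reads may be shared and they count as 1 observation. Dmrtc1c2 had 11, 5 and 3 counts with exon 5, against 48, 92 and 132 without.

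Inputs say little about RNA level for most of these 20 genes, with 0 to 36 counts in the line with exon 5 and 0 to 9 in the line without. The exact Poisson 95% intervals of the lines overlapped for 17 of the 20. They did not for Cadm1 and Nptn, higher in the line with exon 5, and Ints2, lower in the line with exon 5 (0 counts against 9). Overlap does not show equal levels. In the lines with and without exon 5, Pvr had 15 and 1 counts, Cryzl1 11 and 0, and Tmbim6 9 and 0. Ro60 lay the other way, with 1 and 8. Over all 2411 well-counted genes, 511 had at least 10 counts in the inputs of both lines and 468 had none in either.

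**Figure D3:**
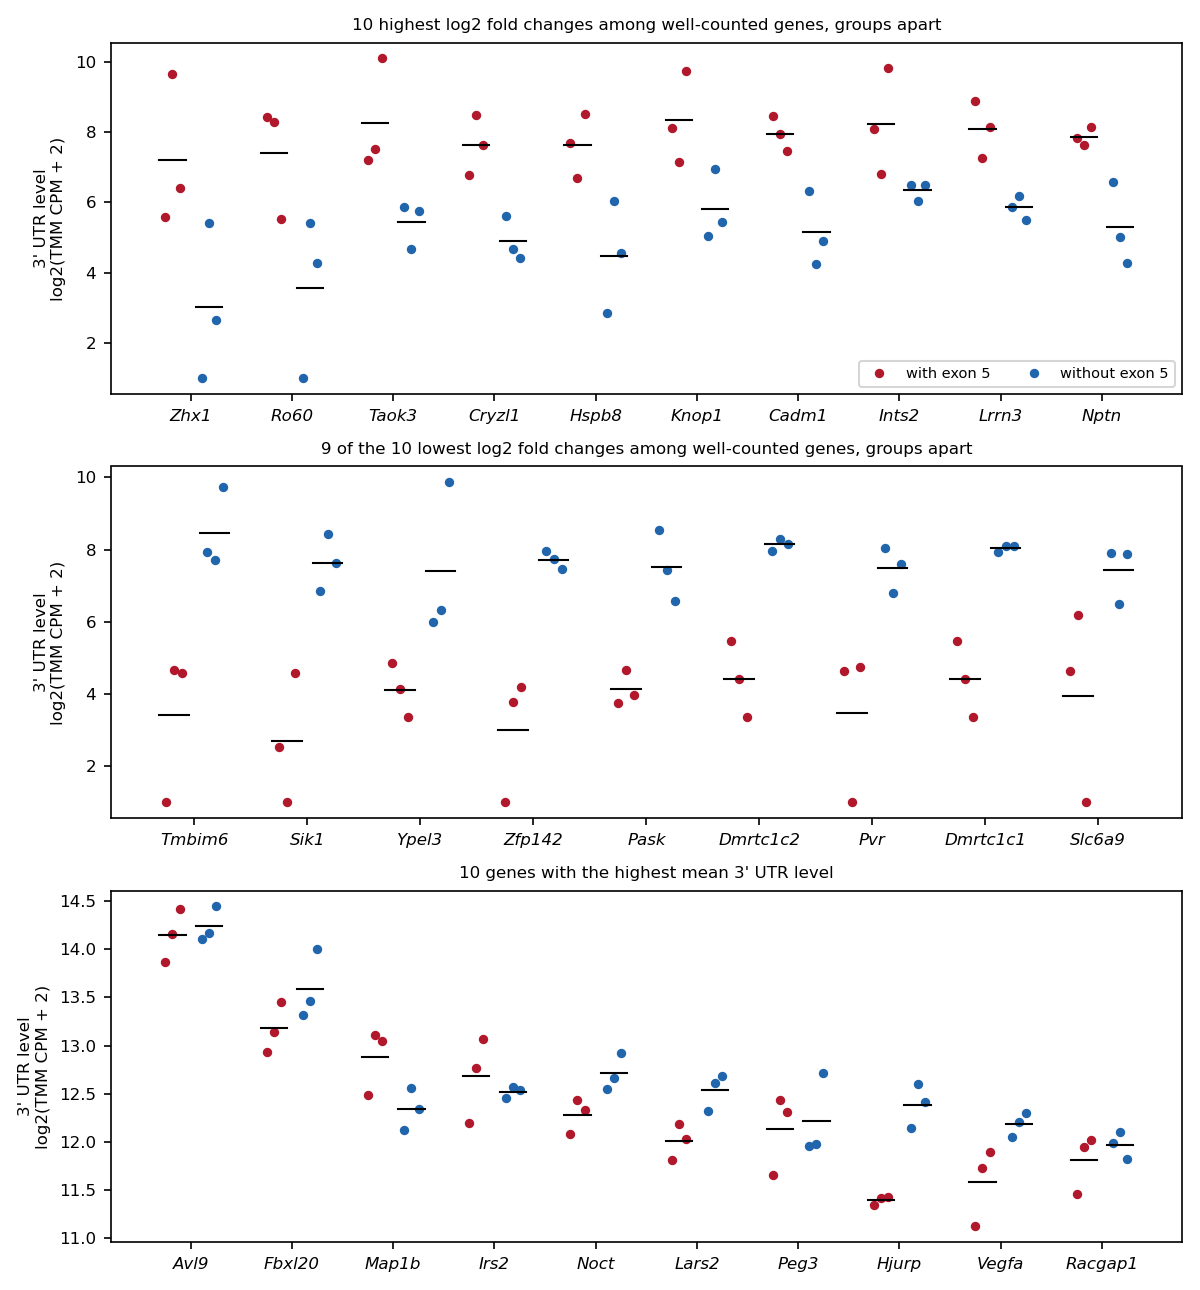
The 3' UTR level, log2(CPM + 2) on the vertical axis, of each library (points; lines are group means) for the 10 highest, 9 of the 10 lowest and the 10 most counted genes, with exon 5 in red left of without exon 5 in blue. In the upper panels the groups are apart because the genes were chosen so. Among the most counted genes 4 of 10 do not overlap (Noct, Lars2, Hjurp and Vegfa). The share was 12.9% over all tested genes and 17.3% over those at 500 CPM and above, and nothing is read from the count in 10 genes.

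A further 7 tested genes, below 100 CPM, had no count in any library with exon 5, and no tested gene had none in all libraries without. These 7 passed the count filter only through the libraries without exon 5, so their direction was fixed by that filter. They include Ccnj, a cyclin, with 22, 16 and 41 counts without exon 5, and Rpa2, a subunit of the single-strand DNA binding protein RPA, with 22, 16 and 24. With the libraries with exon 5 set at 3 counts each, the mean level without exon 5 was 8.16 times that floor for Ccnj and 6.99 times for Rpa2. These ratios are not bounds, since the floor leaves out the spread between replicates. Levels without exon 5 were 85.74 ± 30.05 CPM for Ccnj and 73.45 ± 35.21 CPM for Rpa2 (SD, n = 3 each). Both were named after their values were seen, and their adjusted p was 0.472 in edgeR's quasi-likelihood test.

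The 10 genes with the most 3' UTR counts had log2 fold changes from -1.0 to 0.55. Avl9, a protein of late secretion, had 3880, 4679 and 7953 counts with exon 5, against 3398, 5454 and 10288 without. In CPM the libraries of the 2 forms were interleaved, and the log2 fold change was -0.08 (SE 0.18, 95% interval -0.48 to 0.31). For 6 of the 10 the interval lay wholly within 1 log2 unit of 0 and for 102 of the 2411 well-counted genes, or 4.23%. With 1 library left out, whichever it was, the count of 102 came to 24 to 55. In the fit of all 6, a difference of more than 2-fold lay outside the interval in those 102, while for most well-counted genes the interval, with a median half-width of 1.44 log2 units, was too wide to show that the forms were alike. The point estimate itself was beyond 2-fold in 521 well-counted genes, 242 higher and 279 lower with exon 5.

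Hjurp (chromosome 1, 88258856 to 88277644), the chaperone that places the centromeric histone Cenpa, was the most different of these 10. It had 676, 700 and 996 counts with exon 5, against 874, 1825 and 2508 without, or 2692 ± 82.6 CPM in the libraries with exon 5 and 5385 ± 828 CPM in those without (SD, n = 3 per form). The libraries with exon 5 were nearly equal and all lay well below those without. The log2 fold change was -1.0 (SE 0.23, 95% interval -1.49 to -0.51), with an adjusted p of 0.410 in edgeR's quasi-likelihood test and 0.0143 in limma-voom. In its CDS the log2 fold change was -0.82 (SE 0.21). The inputs held 18 counts in the line with exon 5, 5 in the line without and 64 in the FLAG-GFP line.

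Map1b, a microtubule-associated protein of growing axons, had 1496, 2252 and 3065 counts with exon 5, against 857, 1785 and 2399 without. The groups overlapped, and the log2 fold change was 0.55 (SE 0.23, 95% interval 0.06 to 1.04, adjusted p = 0.772 in edgeR's quasi-likelihood test) in the 3' UTR and 0.76 (SE 0.18) in the CDS. Noct (nocturnin), a circadian phosphatase, had 4993 ± 614 CPM in the libraries with exon 5 and 6743 ± 929 CPM in those without (SD, n = 3 per form), a log2 fold change of -0.43 (SE 0.21). Vegfa, the vascular growth factor, had 579, 865 and 1383 counts with exon 5, against 817, 1391 and 2324 without, a log2 fold change of -0.57 (SE 0.25). The libraries with exon 5 were all lower than those without in these last 2 genes. Log2 fold changes were -0.43 for Fbxl20 (an F-box protein), 0.20 for Irs2 (an insulin receptor substrate), -0.09 for Peg3 (an imprinted zinc finger gene) and -0.15 for Racgap1 (a regulator of cytokinesis), each with overlapping groups. In the inputs, the counting intervals of the lines did not overlap for 4 of the 10. Levels were higher in the line with exon 5 for Avl9 (2355 CPM, against 1314 CPM in the line without) and Fbxl20 (1666 CPM, against 912 CPM). They were lower in the line with exon 5 for Peg3 (643 CPM, against 2500 CPM in the line without) and Vegfa (666 CPM, against 1186 CPM). The part of these RNA levels in the results was not tested. Per kilobase of 3' UTR, the mean levels of Noct were 4478 CPM with exon 5 and 6047 CPM without, above those of Avl9, at 3900 CPM with exon 5 and 4135 CPM without.

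Lars2, the mitochondrial leucyl-tRNA synthetase, had 933, 1190 and 1517 counts with exon 5, against 983, 1845 and 3034 without (log2 fold change -0.53, SE 0.22). It took far more of the inputs, with 10714 counts (123100 CPM) in the line with exon 5, 6686 counts (122000 CPM) in the line without and 3942 counts in the FLAG-GFP line. Whether reads of a near-identical sequence elsewhere were counted for Lars2 was not tested.

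The functions of the tested genes were described with 30 gene lists, by how many members had an unadjusted p under 0.05 in edgeR's quasi-likelihood test and by the median log2 fold change. No member of any list passed the Benjamini-Hochberg threshold. Over all tested genes the same counts were 128 higher and 149 lower with exon 5 of 4616, and the median was -0.05, with quartiles of -0.65 and 0.57. The medians of 21 of the 27 lists that had one took the opposite sign in at least 1 alternative, so medians near 0 carry no direction. Members named below from counts at an unadjusted p under 0.05 were chosen after their values were seen, unless they are among the 3 most counted of their list. A low p and groups apart both reflect separation of the same libraries, so groups apart in such members is no further evidence. Shares of list members with groups apart are given without a test.

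In mRNA export factors, the proteins Chtop works with, 18 of 29 measured genes were tested. Chtop was the 1 member higher at an unadjusted p under 0.05 and none was lower, and the median was 0.03. Zc3h11a, a zinc finger protein that joins TREX, had 239, 230 and 281 counts with exon 5, against 181, 254 and 377 without, under 1 of 2 gene IDs that overlap and share nearly all counts. Its libraries overlapped between the forms, with a log2 fold change of -0.01 (SE 0.32). Xpo1, the receptor that exports proteins and some RNAs, had a log2 fold change of 0.50 (SE 0.58). Nuclear pore proteins and transport receptors had 29 tested genes, with 1 higher, 1 lower and a median of -0.01.

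In SR proteins and speckle scaffolds, which bind exons and are themselves export adaptors in part, 3 of 25 tested genes were higher, 1 was lower and the median was 0.13. Srsf10, a splicing regulator, had 344, 429 and 401 counts with exon 5, against 202, 225 and 174 without (log2 fold change 0.91, SE 0.39). Luc7l2, a factor of the U1 particle, had 149, 199 and 330 counts with exon 5, against 402, 342 and 1036 without (log2 fold change -1.28, SE 0.34). Its relative Luc7l had 90, 136 and 192 counts with exon 5, against 24, 66 and 78 without (log2 fold change 1.44, SE 0.48). The groups did not overlap in any of these 3 genes, so the 2 relatives lay in opposite directions in these libraries. The remaining member was Srsf1, with a log2 fold change of 1.30 (SE 0.54). Over the list, groups were apart in 3 higher and 2 lower of 25 tested genes (20%), against 12.9% of all tested genes.

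Cleavage and polyadenylation factors, which form the end of the 3' UTR, had the highest median of the lists with at least 10 tested genes, 0.69, with 2 of 12 tested genes higher and none lower. Cstf2, which reads the sequence downstream of the cut, had 189, 114 and 73 counts with exon 5, against 30, 30 and 17 without. All libraries with exon 5 lay above those without. The log2 fold change was 2.24 (SE 0.66, adjusted p = 0.472 in edgeR's quasi-likelihood test) in the 3' UTR and 2.51 (SE 0.77) in the CDS, and the inputs held 35 counts in the line with exon 5 and 0 in the line without. Cpsf6, part of cleavage factor I, had 37, 69 and 27 counts with exon 5, against 9, 13 and 17 without (log2 fold change 1.92, SE 0.86), while its partner Cpsf7 had a log2 fold change of -0.19 (SE 0.44). Without replicate 2 with exon 5 the median of this list was -0.05, and with each of the other libraries left out it was 0.59 to 1.06. Groups were apart in 2 of its 12 tested genes (16.7%), against 12.9% of all tested genes.

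HnRNPs and other splicing regulators had 35 tested genes, with 1 higher (Hnrnpa1), 1 lower (Hnrnpll) and a median of -0.07. Among 45 tested 3' UTR binding and mRNA decay factors, 1 was higher, 1 lower and the median was 0.07. Msi2, a translation regulator of progenitor cells, was the higher one, with 28, 33 and 71 counts with exon 5, against 5, 18 and 10 without (log2 fold change 1.98, SE 0.90). Hdlbp (vigilin), which binds mRNAs at the endoplasmic reticulum, was the lower one, with 60, 35 and 49 counts with exon 5, against 61, 175 and 233 without (log2 fold change -1.50, SE 0.49). Ago2, the slicer of microRNA complexes, had 785 ± 130 CPM in the libraries with exon 5 and 563 ± 109 CPM in those without (SD, n = 3 per form), with overlapping libraries. DEAD and DEAH box helicases had 22 tested genes, with none higher, 1 lower and a median of -0.22. The 2 tested arginine methylation genes, Carm1 and Prmt3, had log2 fold changes of -0.07 (SE 0.57) and -0.57 (SE 0.78).

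Translation factors had the lowest median of the lists with at least 10 tested genes, -0.70 over 17, with 1 lower gene and none higher. That gene was Eif3a, a subunit of an initiation factor, with 26, 27 and 23 counts with exon 5, against 16, 189 and 79 without, so the groups overlapped. The list's median was -0.19 without replicate 3 with exon 5, -0.24 without replicate 1 without exon 5 and -0.62 to -0.47 with each of the others left out. The 44 measured ribosomal protein genes had too few 3' UTR counts for any to be tested, and the 4 histone genes had none. Of 17 measured genes in the list of nuclear-encoded mitochondrial energy genes only Lars2, described above, was tested, with an unadjusted p under 0.05 on the lower side, and the 1 measured nuclear long non-coding RNA was not tested.

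Neuronal genes were split. In the synapse and axon list, 5 of 40 tested genes were higher and 3 lower, with a median of 0.19. Beside Cnr1 and Map1b the higher ones were Ank3, Syt6 and Camk2a. Ank3, the scaffold of the axon initial segment, had 273, 113 and 258 counts with exon 5, against 20, 56 and 153 without (log2 fold change 1.80, SE 0.51). Syt6, a synaptotagmin, had 189, 141 and 873 counts with exon 5, against 59, 72 and 239 without (log2 fold change 1.78, SE 0.54). In Ank3 and Syt6 every library with exon 5 had the higher level in CPM, while those of Camk2a, a calcium-dependent kinase of synapses, overlapped.

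The 3 lower genes were Homer1, Nlgn2 and Cntnap1, in each of which the groups did not overlap. Over the list, groups were apart in 5 higher and 3 lower of 40 tested genes (20%), against 12.9% of all tested genes. Homer1, a scaffold of glutamate synapses, had 18, 13 and 8 counts with exon 5, against 29, 95 and 151 without (log2 fold change -2.50, SE 0.73). Nlgn2, an adhesion molecule of inhibitory synapses, had 121, 108 and 292 counts with exon 5, against 175, 292 and 1311 without (log2 fold change -1.49, SE 0.46). Mapt and L1cam, next to Map1b the most counted of the list, had log2 fold changes of 0.21 (SE 0.30) and 0.85 (SE 0.42).

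Axon guidance genes had 17 tested members, 3 higher, 1 lower and a median of -0.02. The higher ones were receptors and a ligand: Unc5c, a netrin receptor, had 110, 62 and 59 counts with exon 5, against 8, 27 and 25 without. Its log2 fold change was 2.13 (SE 0.68), against 1.49 (SE 0.63) for Sema6d and 1.39 (SE 0.62) for Plxnc1, and the libraries of the 2 forms were apart in all 3. Sema4d, another semaphorin, was the lower one, with 41, 36 and 121 counts with exon 5, against 76, 201 and 329 without (log2 fold change -1.50, SE 0.49). Over the list, groups were apart in 3 higher and 1 lower of 17 tested genes (23.5%), against 12.9% of all tested genes. Of 27 tested ion channel genes, 1 was higher (Kcnab2) and 1 lower (Clcn3), with a median of -0.16. Motor proteins had 25 tested genes with 1 higher, none lower and a median of 0.03. The higher one was Kif5c, a neuronal kinesin, at 653 ± 41.8 CPM in the libraries with exon 5 and 344 ± 70.9 CPM in those without (SD, n = 3 per form), a log2 fold change of 0.92 (SE 0.39). Its CDS gave -0.47 (SE 0.39). In the neuroblastoma list, 1 of 10 tested genes (Map1b) was higher, none was lower and the median was 0.04.

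Chromatin regulators had 43 tested genes, none higher and 4 lower, with a median of -0.20. Setd5, a SET domain protein, had 292, 254 and 385 counts with exon 5, against 360, 431 and 1150 without (log2 fold change -0.87, SE 0.30). Hcfc1, a cofactor of histone methyltransferases, had 30, 45 and 73 counts with exon 5, against 81, 104 and 174 without (log2 fold change -1.22, SE 0.49). The other 2 were Hdac5, a histone deacetylase, and Chd1, a chromatin remodeler, and in all 4 genes each library with exon 5 was lower in CPM than each without. Over the list, groups were apart in 1 higher and 5 lower of 43 tested genes (13.95%), against 12.9% of all tested genes. Of 15 tested DNA repair genes, 1 was higher, none lower and the median was 0.09. It was Atrx, a chromatin remodeler, with 367, 385 and 485 counts with exon 5, against 116, 241 and 445 without (log2 fold change 0.83, SE 0.31). Cell cycle genes had 18 tested members, none higher, 1 lower (Hjurp) and a median of -0.18.

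Zfp zinc finger genes were the largest list, with 114 tested, 4 higher, 3 lower and a median of 0.13. Groups did not overlap in 12 higher members (10.5%) and 8 lower members (7.02%), against 5.91% higher and 7.0% lower over all tested genes. Zfp781 had 31, 39 and 38 counts with exon 5, against 5, 4 and 3 without (log2 fold change 3.05, SE 1.10). Immediate-early and intronless genes had 16 tested members, none higher, 1 lower and a median of -0.22. The lower one was Egr1, a transcription factor induced by growth signals, with 91, 63 and 177 counts with exon 5, against 310, 94 and 382 without, which overlapped in CPM.

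Solute carriers, which move ions and nutrients across membranes, had 81 tested genes, none higher and 4 lower, with a median of -0.27. Beside Slc6a9 these were Slc37a3, Slc25a28 and Slc3a2. Slc3a2, the heavy chain of amino acid exchangers, had 29, 50 and 92 counts with exon 5, against 65, 116 and 242 without (log2 fold change -1.16, SE 0.50). Membrane glycoproteins and secretory pathway genes had 30 tested members, none higher and 2 lower, Vgf and Fgfr1, with a median of -0.06. Vgf, a secreted neuropeptide precursor, had 62, 47 and 364 counts with exon 5, against 231, 330 and 690 without (log2 fold change -1.42, SE 0.54). Without replicate 3 with exon 5, which held most of its counts in that group, the value was -2.61. For Fgfr1, a growth factor receptor, 889 of the counts without exon 5 came from 1 library.

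Heat shock proteins and chaperones had 17 tested genes, none higher and 3 lower. Their median of 0.13 had no stable sign, at -0.20 to 0.35 with a library left out. Calr (calreticulin), a calcium-binding chaperone, had 25, 33 and 36 counts with exon 5, against 6, 136 and 596 without, so the first library without exon 5 lay below all those with it. The log2 fold change was -2.47 (SE 0.86), and -1.22 without replicate 3 without exon 5. The other lower members were Cct3 and Stip1. Ubiquitin-specific proteases had 26 tested genes, none higher, 1 lower (Usp11) and a median of -0.06. F-box and TRIM genes of ubiquitin ligases had 44, with 1 higher, 3 lower and a median of 0.20. The MAP kinase cascade had 35 tested genes, with Mapk10, a neuronal JNK kinase, higher (log2 fold change 1.01, SE 0.43), Dusp16, a MAP kinase phosphatase, lower (log2 fold change -2.02, SE 0.52) and a median of -0.23. The 1 tested marker of other cell types, Mbp, had a log2 fold change of -0.44 (SE 1.58).

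**Figure D4:**
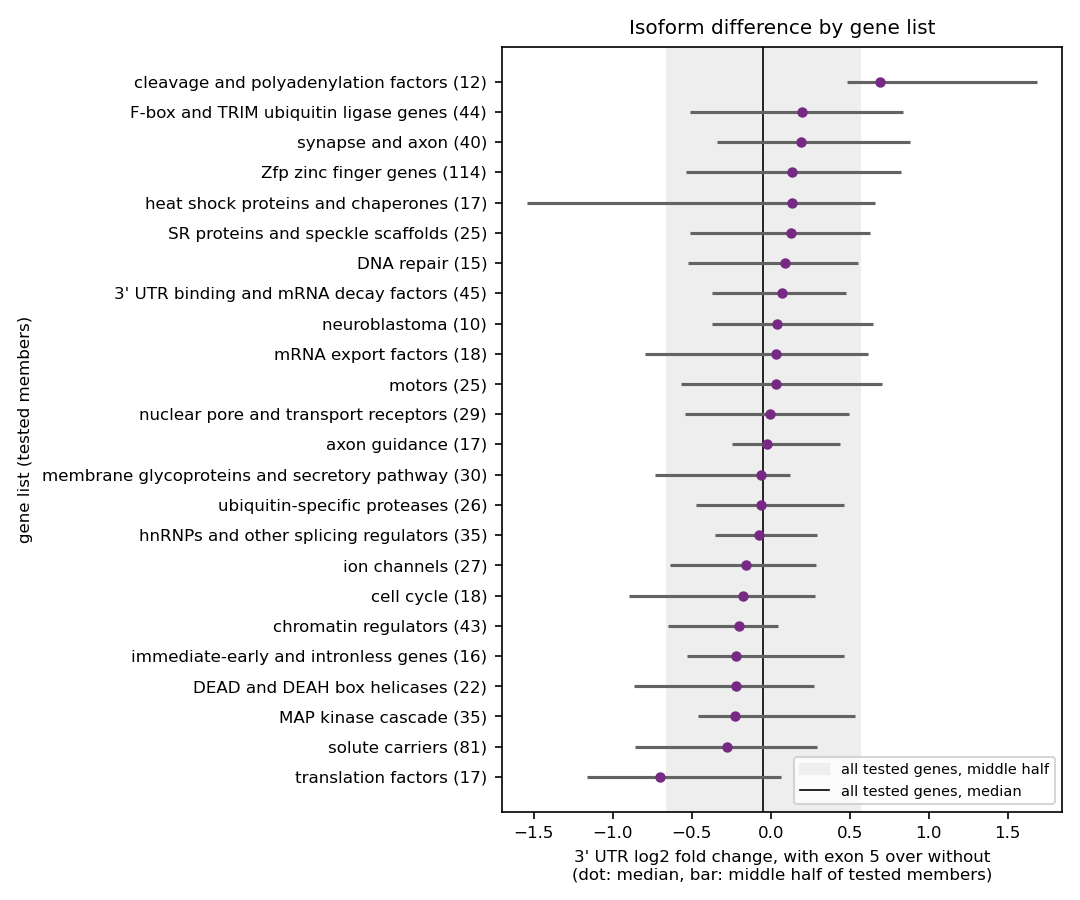
Median (dot) and middle 50% of members (bar) of the log2 fold change, with exon 5 over without, for gene lists with at least 10 tested members, whose number stands in brackets; the vertical line and grey band give the same for all 4616 tested genes. All bars share some of the band, and medians ran from -0.70 (translation factors) to 0.69 (cleavage and polyadenylation factors).

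The coding part of the same genes gave a further reading from the same 6 libraries, so its values are set beside those of the 3' UTR and not counted as separate evidence. In the CDS, 0 of 6214 tested genes (0%) passed edgeR's quasi-likelihood test, 401 had an unadjusted p under 0.05 and the lowest adjusted p was 0.380. DESeq2's Wald test called 21 CDS genes, and edgeR's test with the replicate number as a block called 10. Of the 10 highest 3' UTR genes, 9 were tested in the CDS, where 5 were above 0 and 4 below, and only in Lrrn3 (log2 fold change 1.94, SE 0.47) did the 95% interval leave out 0. Of the 10 lowest, 7 were tested in the CDS, 3 above 0 and 4 below, and no interval left out 0. These genes were chosen for extreme 3' UTR values, so CDS values nearer 0 say nothing by themselves about a difference between the parts. The test of that difference, of the relative use of 3' UTR and CDS within a gene, passed the Benjamini-Hochberg threshold for 0 of 3726 genes (0%). At an unadjusted p under 0.05 it gave 134 genes.

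The lowest adjusted p of that test, 0.543, belonged to Zfp142, whose 3' UTR held 0.890 ± 0.783% of its 3' UTR and CDS counts with exon 5 and 17.8 ± 1.98% without (SD, n = 3 each). Its CDS log2 fold change was -0.10 (SE 0.32). Pask had a share of 1.72 ± 0.787% with exon 5 and 20.1 ± 16.3% without, and a CDS log2 fold change of 0.15 (SE 0.33). Taok3 lay the other way, with 68.0 ± 18% with exon 5 and 17.5 ± 11.6% without, and a CDS log2 fold change of -0.56 (SE 0.66). For Cadm1 the share was 69.0 ± 8.42% with exon 5 and 16.1 ± 2.02% without. The shares of the 2 forms did not come close to each other in Zfp142 and Cadm1, but the adjusted p for the difference was 0.665 for Pask and Taok3 and 0.986 for Cadm1 by edgeR's diffSpliceDGE. These genes were chosen for extreme 3' UTR counts with groups apart. A gap in the share follows in part from that choice, so nothing is read from it.

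**Figure D5:**
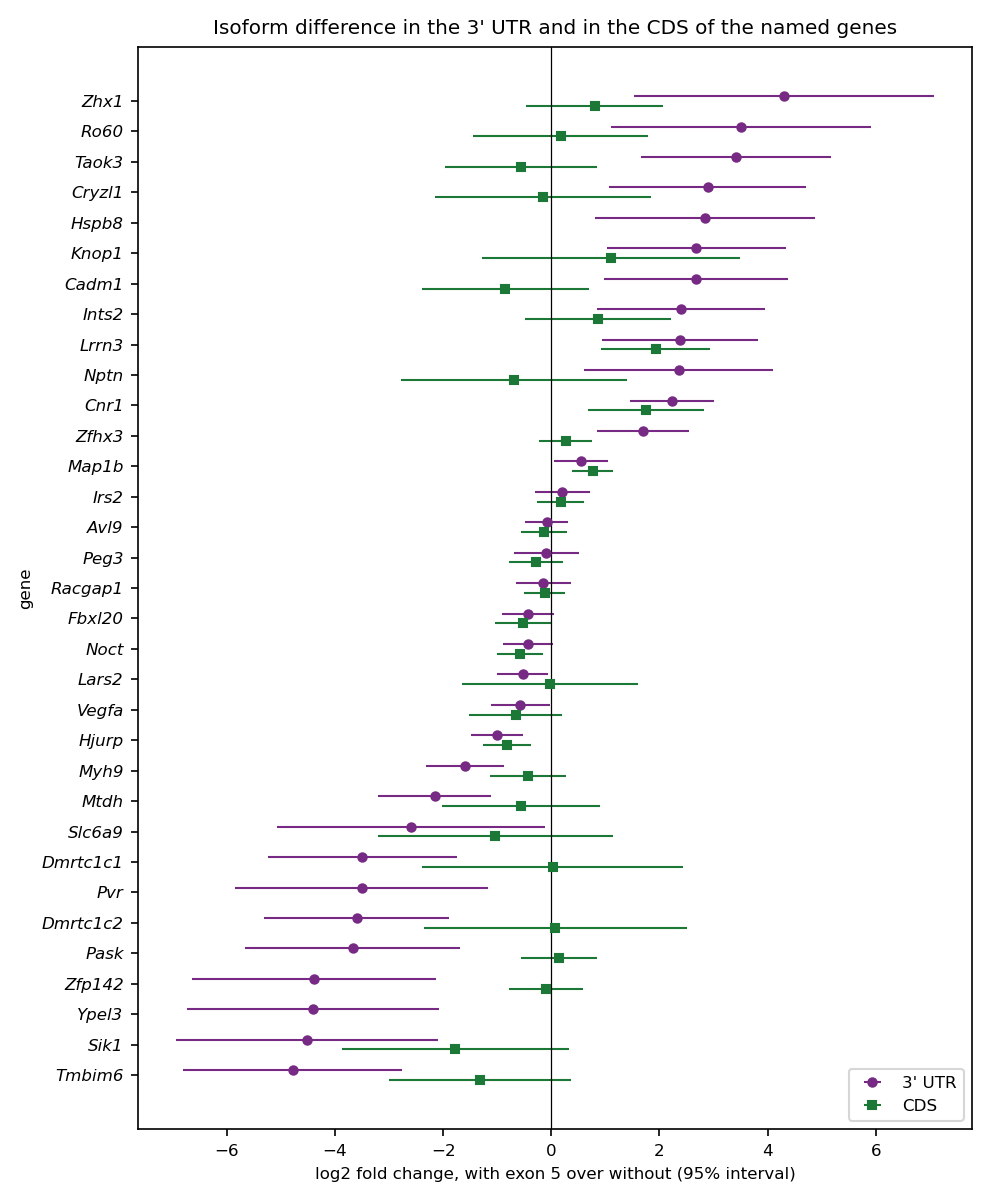
Log2 fold change, with exon 5 over without, and its 95% interval in the 3' UTR (circles) and in the CDS (squares) of the same genes, ordered by the 3' UTR value; genes with no square were not tested in the CDS. CDS intervals leave out 0, on the side of the 3' UTR value, in Lrrn3, Cnr1, Map1b, Fbxl20, Noct and Hjurp, and include 0 in the other genes with a square.

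At the level of whole libraries the 3' UTR took 29.6 ± 1.60% of counts with exon 5 and 28.8 ± 1.27% without (SD, n = 3 each). The difference of 0.78 percentage points gave p = 0.5 in a two-sided exact permutation test, where 3 against 3 libraries can give no less than 0.1. The inputs held 50.2% in the line with exon 5, 48.9% in the line without and 51.6% in the FLAG-GFP line.

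Separation of the groups followed depth. In tested genes below 50 CPM the groups did not overlap in 9.87% and the median half-width of the interval was 3.24 log2 units, while at 500 CPM and above they did not overlap in 17.3% and the half-width was 0.829. By 3' UTR length, the share without overlap was 10.2% below 500 bases, 11.8% from 500 to 1000, 12.4% from 1000 to 2000, 13.5% from 2000 to 4000 and 14.7% from 4000 bases on. Longer 3' UTRs also had more counts, with median levels of 66.8 CPM in the shortest class and 144 CPM in the longest. The median log2 fold change was -0.01, -0.18, -0.13, -0.01 and 0.13 over these 5 length classes. These are descriptions across genes, without a test.

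The authors' deposited table sorts 2787 genes by their 3' UTR into 275 with exon 5, 282 without and 2230 in both, and its column name gives a log2 fold change of 1 in the same direction in all replicates as the rule. That table was made from the same libraries and is no independent evidence. Of the 265 tested genes that the authors' deposited table puts with exon 5, 88 had an unadjusted p under 0.05 in edgeR's quasi-likelihood test here, 0 were called and the median log2 fold change was 1.55. Of the 265 tested genes it puts without exon 5, 101 had such a p, 0 were called and the median was -1.63. Groups were apart in 165 of the genes it puts with exon 5 and in 169 of those it puts without, against 12.9% of all tested genes, but the authors' rule itself asks for one direction in all replicates, so nothing is read from these counts. In the 2223 tested genes that the authors' deposited table has in both, 46 had such a p, groups were apart in 141 and the median was -0.09. Cnr1, Zfhx3 and Chtop are in its class with exon 5 and Myh9 and Mtdh in its class without, while Hjurp, with -0.93 in the authors' deposited table, is in both.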

How the data were processed

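Per the file headers, the authors deposited tables of raw counts by gene part (5' UTR, CDS, 3' UTR), part lengths in bases, and a table with log2 fold changes and isoform classes. TopHat2, DESeq2 and mm10 are named in the submitters' processing notes, with no versions. For the counting tool, strand handling, read filters and any collapse of reads by random primer bases, the settings were not stated in the labels. In all, 27 columns of per-sample values were not used. For 2 inputs the replicate number in the count header differed from the title, and they were matched by line and primer.

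Counts of the 6 isoform libraries were tested with edgeR 4.0.16 (quasi-likelihood F-test, robust, TMM, filterByExpr with a minimum count of 10 and total of 15) in R 4.3.3, with Benjamini-Hochberg adjustment over all tested genes at 0.05. Each SE is the absolute log2 fold change over the square root of F, and intervals are 95%. CDS counts were tested in the same way, and part use with diffSpliceDGE. CPM is per library's 3' UTR total, and input CPM has no TMM factor. Alternatives used DESeq2 1.42.0 and limma 3.58.1, other scalings and filters, a replicate block and each replicate left out. The scripts were tested on simulated data.

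Symbols come from the deposited tables, and coordinates from RefSeq (GRCm38.p6) by symbol for 4042 tested genes. Named genes were Chtop, the 10 highest and 10 lowest log2 fold changes among well-counted genes with groups apart, the 10 most counted, the 3 most counted of each list and the 5 with the narrowest intervals (Avl9, Noct, Lars2, Fbxl20 and Hjurp). Genes with no symbol stayed in the test and were not named, and a few other named genes are not reported here. Comparison, lists and rules were chosen with earlier results of these data known.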

Additional observations from a re-analysis of the deposited data

How the results depend on the processing

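The count of 3' UTR genes past the threshold was 0 with RLE or upper quartile scaling, with library size from all gene parts, without the robust fit, with all 9 libraries and with each of the 6 libraries left out in turn. It was 1 with library size alone, 36 with no filter, 1 with a mean of at least 30 counts (Cnr1, as with library size), 20 with DESeq2 and 2 with limma-voom. CDS calls were 0 except for 23 with no filter, 21 with DESeq2 and 10 with the replicate block. Part use gave 0 in every alternative run. The cause of these differences was not tested. Of the named genes, 17 were called in at least 1 alternative, Cnr1 in 5 and Hjurp in 3.

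With the replicate number as a block, 3' UTR calls were 0 and 110 well-counted genes had intervals within 1 log2 unit of 0, against 102 without it. Across tested genes, deviations of same-numbered libraries from their group means correlated at -0.00202 to 0.0534. The 3' UTR share of counts, though, fell from replicate 1 to replicate 3 in both forms. Whether the numbers pair the samples was therefore not settled. With a library left out, which takes away 1 of 6 samples, that count of 102 was 24 to 55. The difference in 3' UTR share was 0.12 to 1.67 points with a library left out. Of 1749 values of 103 named genes under an alternative, 72 in 31 genes had the opposite sign, 46 of them with a library left out. Those genes had log2 fold changes of at most 0.84 in size. None was among the 10 highest, the 10 lowest or Cnr1, Zfhx3, Myh9 and Mtdh. The 10 highest and 10 lowest were chosen with groups apart, and the groups of Cnr1, Zfhx3, Myh9 and Mtdh were apart as well. With groups apart, leaving out a library can hardly turn the sign, so nothing is read from the kept signs of these genes. Among the most counted genes, with a library left out, Avl9 ranged from -0.26 to 0.031, Irs2 from -0.035 to 0.39 and Peg3 from -0.29 to 0.18. Of 215 medians of 27 gene lists under an alternative, 49 in 21 lists had the opposite sign. Those of translation factors, solute carriers, chromatin regulators, DEAD and DEAH box helicases, Zfp genes, and F-box and TRIM genes kept theirs in the alternatives run. Depth limits genes below 100 CPM most: the median half-width was 2.45 log2 units from 50 to 100 CPM and 3.24 below 50.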
